A study of Mus musculus with 16 samples.

Results

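The genes described here are 10 genes of the endoplasmic reticulum (ER) folding machinery and of the unfolded protein response (UPR). They are Hspa5, Hsp90b1, Calr, Dnajb9, Sdf2l1, Pdia4, Pdia6, Herpud1, Ern1 and Xbp1. They were taken by symbol from a count table of 55335 gene identifiers, and all 10 were found and passed the filter on low counts. The libraries came from mouse CD8 T cells enriched from the spleens of C57BL/6 mice, either wild type or lacking Batf3 (Batf3-/-, called ko here; the labels name no allele or age). Batf3 is a transcription factor of the AP-1 family. All cells, of both genotypes, were cultured with IL-15 at 50 ng/ml and stimulated with antibodies to CD3 and CD28 at 1 µg/ml each, so no unstimulated group was used here. Each of the 4 groups (wild type and ko at 48 h and at 72 h) held 4 poly-A RNA libraries. The study's text calls these 4 technical replicates, so p-values here measure the spread between libraries and not between mice.

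The ER folds proteins that are to be secreted or displayed on the cell surface. When unfolded proteins build up there, 3 sensors in the ER membrane respond: IRE1 (gene Ern1), which splices the mRNA of the transcription factor XBP1; ATF6, which is cut to release a transcription factor; and PERK (gene Eif2ak3), which phosphorylates eIF2α and so favours translation of ATF4. XBP1 and ATF6 raise chaperones and degradation factors, whereas ATF4 raises amino acid genes and Ddit3, which encodes the transcription factor CHOP. Other eIF2α kinases can also raise ATF4 and Ddit3 without unfolded protein in the ER. Activated T cells enlarge the ER as they grow and begin to secrete. The counts are summed per gene, so spliced and unspliced Xbp1 were not told apart, and protein was not measured. The question put to the data was whether the ER folding genes were higher in ko cells, as Ddit3 was.

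Promoter letters are shown first because some members hold the ER stress response element (ERSE). ATF6 and NF-Y are known to act on chaperone genes through this site. The windows run from 250 bases before to 50 after each start and are from RefSeq (GRCm38.p6), and all 10 members had one. The ERSE was searched on both strands as CCAAT, any 9 bases, then CCACG. It stood in 4 of the 10 members, against 39 of 32851 windows (0.119%). A second element, ERSE-II, searched as ATTGG, any base, then CCACG, stood in 1 member, Herpud1, against 12 windows (0.0365%). The XBP1 core TGACGTGG stood in 0 of the 10 members and in 222 windows (0.676%). Such elements are known from ER folding and UPR genes, and the members were chosen as such genes. These shares therefore describe the letters and are no test. No 2 matches in a member overlapped. Stretches around the matches are written 5′ to 3′ on the gene's strand, with the matches in capitals; a match in reverse begins with CGTGG. The Hspa5 match, cut short here, lies before the RefSeq start but inside a longer first exon in GENCODE M21.
Hspa5, chr2:34772020-34772048, plus strand: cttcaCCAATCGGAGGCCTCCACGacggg
Hsp90b1, chr10:86705508-86705681, minus strand: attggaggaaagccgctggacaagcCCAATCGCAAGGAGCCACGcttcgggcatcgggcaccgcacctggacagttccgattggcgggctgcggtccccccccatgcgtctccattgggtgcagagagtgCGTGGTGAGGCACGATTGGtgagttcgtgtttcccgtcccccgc
Calr, chr8:84847050-84847118, minus strand: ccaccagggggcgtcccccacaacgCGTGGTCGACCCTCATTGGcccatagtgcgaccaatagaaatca
Pdia6, chr12:17266466-17266534, plus strand: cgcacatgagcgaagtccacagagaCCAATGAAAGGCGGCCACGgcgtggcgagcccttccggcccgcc
Herpud1, chr8:94386352-94386412, plus strand: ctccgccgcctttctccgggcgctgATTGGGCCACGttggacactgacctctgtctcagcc
Hsp90b1 held 2 matches, one on each strand, and Calr held its match in reverse. A match is a description of these letters, and binding was not measured.

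Library totals ran from 29375818 to 39241169 counts, so 3 counts, the upper limit for a gene with no count, were worth 0.0765 to 0.102 CPM (counts divided by the library's total and put on a common scale). Batf3 had 80.7 ± 5.86 CPM in wild-type and 0.129 ± 0.0658 CPM in ko cells at 48 h, and 30.9 ± 2.65 against 0.0916 ± 0.183 CPM at 72 h (SD, n = 4). The T cell markers Cd3d, Cd3e, Cd3g, Cd8a and Cd8b1 were all above 86.3 CPM in every library, and Cd4 was at most 0.896 CPM. The 5 T cell markers summed to 1120 to 1159 CPM in wild type and 1166 to 1250 CPM in ko at 48 h. At 72 h their sums were 1667 to 1742 CPM in wild type and 1874 to 1999 CPM in ko. By edgeR, 2 of these 5 passed as higher in ko at each time, against 4.41% and 16.9% of all genes, with 0 lower. For B and plasma cells, whose ER is large, the defining genes Pax5 and Mzb1 were at most 0.146 CPM and Tnfrsf17 was at 0 in all 16 libraries. Of other genes on that list, Cd79b had 4.12 to 9.41 CPM, Sdc1 7.23 to 18.5 CPM and Jchain at most 1.56 CPM. Of the 4 tested, Ighm was higher in ko at 48 h, against 4.41% of all genes. At 72 h Ighm, Jchain and Sdc1 were higher, against 16.9%. The 10 genes of that list summed to 231 to 347 CPM, of which Ighm alone gave 217 to 327, and the group ranges were 262 to 274 in wild type and 299 to 333 in ko at 48 h, and 231 to 302 and 318 to 347 at 72 h. The sum of 12 myeloid markers, mostly H2-Ab1, was 11.5 to 15.3 and 18.1 to 21.05 CPM at 48 h and 71.8 to 89.5 and 118 to 137 CPM at 72 h (wild type, then ko), with Adgre1 and Siglech at 0 in all libraries. Of the 6 myeloid markers tested, 2 were higher in ko at 48 h and 3 at 72 h, with 0 lower, against 4.41% and 16.9% of all genes higher. The sum of 6 NK cell markers, most of which activated CD8 T cells also express, was 91.4 to 97.8 and 143 to 157 CPM at 48 h. At 72 h it was 190 to 242 and 268 to 282 CPM (wild type, then ko). Of these 6, 4 were higher in ko at 48 h, against 4.41% of all genes. At 72 h 4 were higher and 1 lower, against 16.9% and 19.5%. The part of these differences in the results was not tested. In bulk RNA, fewer cells of a type and less RNA per cell cannot be told apart. Replicate 4 of ko at 48 h and replicate 4 of wild type at 72 h stood apart from the rest of their groups by 0.234 and 0.218 (root mean square log2 difference over genes, against 0.109 to 0.163 for the other 14), and values without both are given where the call of a member changes.

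Between 48 h and 72 h the abundant chaperones BiP, GRP94 and calreticulin fell in both genotypes. None of the chaperones and co-chaperones among the members passed the test between genotypes at 48 h, where Ddit3 was higher in ko cells. Together the 10 members took 3013 to 3160 CPM in wild-type and 2835 to 3187 CPM in ko libraries at 48 h. At 72 h they took 1871 to 1938 CPM in wild-type and 1611 to 1739 CPM in ko libraries. In CPM the genotypes overlapped at 48 h and did not overlap at 72 h. After the TMM scaling that the fit uses, the 72 h sums were 1787 to 1920.5 in wild-type and 1681 to 1824 in ko libraries, and these overlapped.

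**Figure D1:**
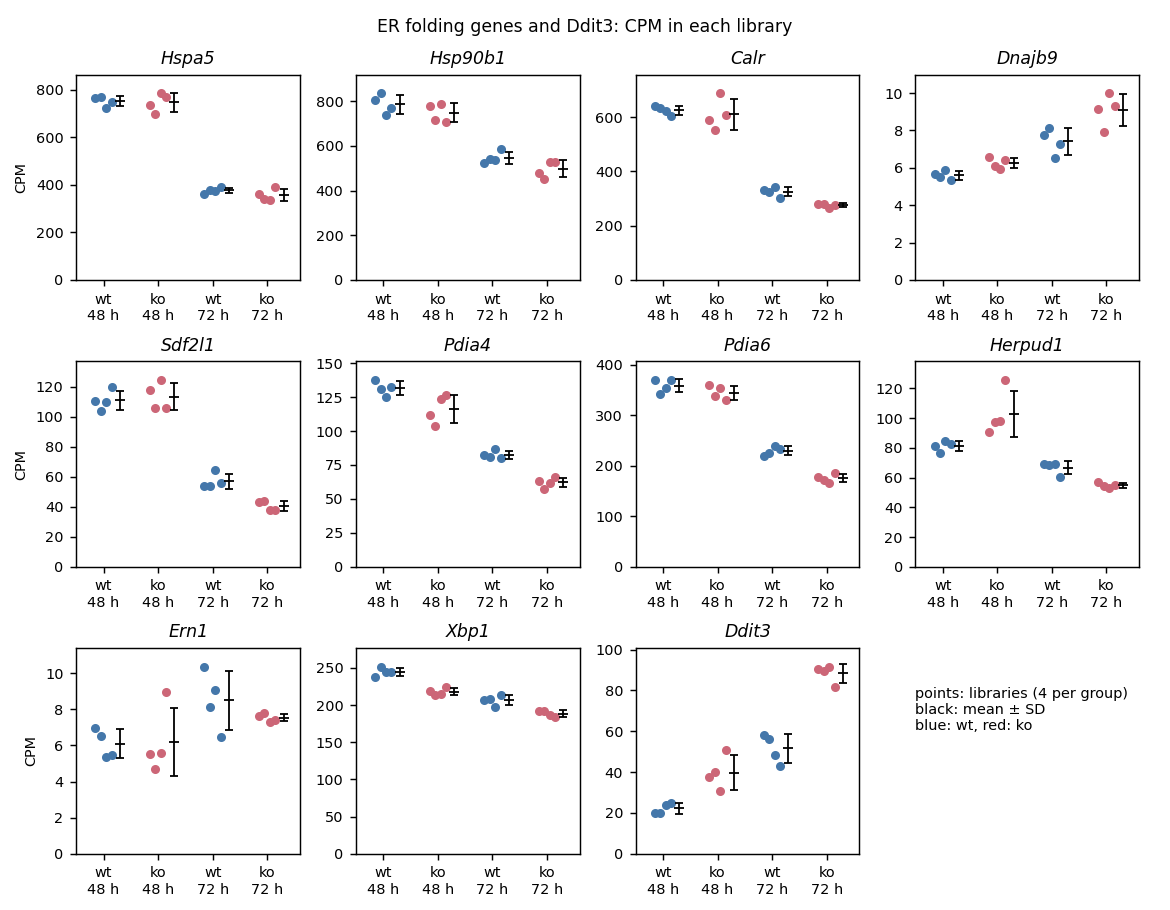
Level of each member and of Ddit3 in CPM (vertical axis, from 0, own scale per gene) in the 4 groups; points are libraries and bars are means ± SD (n = 4). Most chaperone genes drop from 48 h to 72 h in both genotypes, whereas Dnajb9 and Ddit3 are highest in ko cells at 72 h.

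Per length of exon, the members differed widely. In RPKM (CPM divided by exon length in kilobases) in wild-type cells at 48 h, Calr stood first with 217, followed by Hsp90b1 with 195, Hspa5 with 178, Sdf2l1 with 100.2, Pdia6 with 95.8, Xbp1 with 75.2, Pdia4 with 54.9 and Herpud1 with 34.7. Dnajb9 had 2.197 and Ern1 0.745 RPKM. The ranges of Sdf2l1 (93.9 to 107.9) and Pdia6 (91.5 to 98.7) over these libraries overlapped, and the difference between these neighbours was not tested. At 72 h Hsp90b1 stood first with 136 RPKM in wild-type and 123 in ko cells, and Xbp1 had 63.6 and 58.1, above Sdf2l1 in both. In wild-type cells its libraries (60.9 to 65.8) overlapped those of Pdia6 (58.5 to 64.1).

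Hspa5 encodes BiP, the Hsp70 chaperone of the ER that also holds the sensors inactive. It had 764.9, 768, 721 and 749.7 CPM in wild-type libraries at 48 h and 734, 698, 785 and 769.8 CPM in ko libraries. At 72 h it had 363, 377, 374 and 392 CPM in wild-type and 361, 340.5, 335 and 389 CPM in ko libraries. The genotypes overlapped at both times, and all 72 h libraries lay far below all 48 h libraries. Between the times Hspa5 fell in wild-type cells by a log2 change of −1.02 (SE 0.06, edgeR adjusted p = 2.14e-13) and in ko cells by one of −1.001 (SE 0.06, adjusted p = 1.83e-13). Its ko against wild-type log2 fold change was 0.03 (SE 0.06, adjusted p = 0.843) at 48 h and 0.05 (SE 0.06, adjusted p = 0.574) at 72 h.

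The other 2 large chaperones moved likewise. Hsp90b1, the ER form of Hsp90 (GRP94), averaged 787 ± 42.3 CPM in wild type and 748 ± 42.3 in ko at 48 h, and 547 ± 26.9 and 498 ± 37.8 CPM at 72 h (SD, n = 4). It fell with time by 0.55 in wild-type and 0.52 in ko cells (SE 0.07 each), and the genotypes overlapped at both times. Hsp90b1 shares 415 exon bases with an antisense gene, 1810014B01Rik, which had 2860 counts over all libraries against 355214 for Hsp90b1. Calr, calreticulin, which folds sugar-bearing proteins such as MHC class I, had 333, 325, 343 and 302 CPM in wild-type and 280.5, 281, 265 and 275 CPM in ko libraries at 72 h. These groups did not overlap, yet the fitted log2 fold change of −0.11 (SE 0.06, adjusted p = 0.133) did not pass. At 48 h the genotypes overlapped, with 625 ± 16.5 and 610.3 ± 56.9 CPM (SD, n = 4). Calr fell with time by 0.97 in wild-type and 1.08 in ko cells (SE 0.06 each).

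CPM and the fitted change differ here for a reason of scale. The fit used TMM factors, which were 1.01 to 1.07 in wild-type and 0.941 to 0.958 in ko libraries at 72 h. Scaled by library totals alone, the median log2 change of all genes at 72 h was −0.14, against −0.02 with TMM, and 23.4% rather than 46.4% of the called genes were higher in ko. With that scaling Calr (−0.24, adjusted p = 0.00246), Herpud1 (−0.28, adjusted p = 0.00611) and Xbp1 (−0.13, adjusted p = 0.0331) also passed as lower in ko at 72 h, about as much below zero as that median or more.

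Of the 2 co-chaperones among the members, one fell and one rose. Sdf2l1, a stress-inducible partner of BiP and its J proteins, had 110.6, 104, 110.0 and 119.6 CPM in wild-type and 118, 106.0, 124 and 106 CPM in ko libraries at 48 h. At 72 h it had 53.8, 53.8, 64.4 and 56.1 CPM in wild-type and 42.9, 44.1, 37.8 and 37.6 CPM in ko libraries. The genotypes overlapped at 48 h and every ko library lay below every wild-type library at 72 h. The ko against wild-type log2 change was 0.07 (SE 0.07, adjusted p = 0.644) at 48 h and −0.36 (SE 0.08, adjusted p = 0.000607) at 72 h. From 48 h to 72 h Sdf2l1 fell by 0.99 in wild-type and by 1.42 in ko cells, and its genotype effect differed between the times by −0.43 (SE 0.11, adjusted p = 0.0175). That difference missed the threshold without ko replicate 3 at 48 h (adjusted p = 0.0514), wild-type replicate 3 at 72 h (0.0518) or ko replicate 3 at 72 h (0.0766).

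Dnajb9 encodes ERdj4, a J protein that directs BiP to IRE1 and to misfolded clients. It had 5.69, 5.49, 5.87 and 5.35 CPM in wild-type and 6.58, 6.09, 5.96 and 6.41 CPM in ko libraries at 48 h. At 72 h it had 7.77, 8.15, 6.50 and 7.26 CPM in wild-type and 9.14, 7.93, 9.99 and 9.28 CPM in ko libraries. The ko libraries were all higher at 48 h, and at 72 h 1 ko library lay below the highest wild-type library in CPM, though not after TMM scaling. The log2 change was 0.20 (SE 0.11, adjusted p = 0.316) at 48 h and 0.41 (SE 0.11, adjusted p = 0.00449) at 72 h. Dnajb9 rose with time, by 0.38 in wild-type (SE 0.11) and 0.60 in ko cells (SE 0.11), where BiP fell. It was counted from 181 to 314 reads a library, far fewer than the other chaperones.

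Protein disulfide isomerases make and reshuffle disulfide bonds. Pdia4 had 82.3, 80.6, 86.9 and 80.5 CPM in wild-type and 63.2, 57.5, 61.7 and 66.1 CPM in ko libraries at 72 h, without overlap. Its log2 change was −0.28 (SE 0.06, adjusted p = 0.000834) at 72 h and −0.14 (SE 0.06, adjusted p = 0.15) at 48 h, where the means were 132 ± 5.02 and 116 ± 10.5 CPM (SD, n = 4) and the groups overlapped. Pdia6, which also dampens IRE1 signalling, had 219, 226, 240.0 and 233 CPM in wild-type and 178, 172, 166 and 185 CPM in ko libraries at 72 h, again without overlap. Its log2 change was −0.26 (SE 0.06, adjusted p = 0.000917) at 72 h and −0.02 (SE 0.06, adjusted p = 0.885) at 48 h, from 359 ± 13.1 and 345 ± 13.9 CPM (SD, n = 4). Over time Pdia4 fell by 0.70 in wild-type and 0.84 in ko cells, and Pdia6 by 0.67 and 0.91 (SE 0.06 each). For Pdia6 the difference between the 2 genotype effects was −0.24 (SE 0.08, adjusted p = 0.0775), which passed without ko replicate 4 at 48 h (adjusted p = 0.0286) and without both libraries that stood apart (adjusted p = 0.0318).

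Herpud1, an ER membrane protein that gathers the complex for ER-associated degradation (ERAD), was the only member called in ko cells at 48 h. It had 81.2, 76.4, 84.2 and 82.3 CPM in wild-type and 90.9, 97.0, 98.0 and 125 CPM in ko libraries. Every ko library was higher than every wild-type library, and the highest was replicate 4, the ko library that stood apart. The log2 change was 0.37 (SE 0.07, adjusted p = 0.00136), and 0.29 (SE 0.06, adjusted p = 0.000574) without both libraries that stood apart. At 72 h it had 68.9, 68.1, 69.2 and 60.3 CPM in wild-type and 56.9, 54.4, 52.8 and 55.0 CPM in ko libraries. There the ko libraries were all lower in CPM, but the groups overlapped after TMM scaling. The log2 change there was −0.15 (SE 0.07, adjusted p = 0.0877), and −0.19 (SE 0.06, adjusted p = 0.00836) without both libraries. The difference between the 2 genotype effects was −0.53 (SE 0.10, adjusted p = 0.00237), and −0.48 (SE 0.08, adjusted p = 0.000329) without both. Herpud1 fell with time by 0.31 in wild-type (SE 0.07) and by 0.84 in ko cells (SE 0.07). The wild-type fall missed the threshold once each library's trend with exon length was removed (adjusted p = 0.0546).

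Neither Ern1 nor Xbp1, the sensor and the transcription factor of the IRE1 arm, passed the test between genotypes. Ern1 had few reads, 163 to 317 a library, and averaged 6.09 ± 0.807 and 6.19 ± 1.89 CPM (wild type and ko) at 48 h and 8.50 ± 1.64 and 7.54 ± 0.206 CPM at 72 h (SD, n = 4). Its genotype changes were 0.05 (SE 0.16) at 48 h and −0.04 (SE 0.15) at 72 h. The highest ko value at 48 h, 8.96 CPM, was again replicate 4, and without both libraries that stood apart the 48 h value was −0.16 (adjusted p = 0.463). Ern1 rose with time by 0.45 in wild-type (SE 0.15, adjusted p = 0.0125) and 0.36 in ko cells (SE 0.15, adjusted p = 0.042). The first call was lost without wild-type replicate 1 at 72 h (adjusted p = 0.0641). The second was lost without any of replicates 1 to 3 of ko at 48 h (adjusted p = 0.0972, 0.135 and 0.11) or replicates 1, 2 and 4 of ko at 72 h (0.0736, 0.0771 and 0.0606).

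Xbp1 had 238, 251, 245 and 244 CPM in wild-type and 219, 214, 214 and 225 CPM in ko libraries at 48 h. At 72 h it had 207, 208, 198 and 214 CPM in wild-type and 192, 192, 186 and 184 CPM in ko libraries. All ko libraries were lower at each time in CPM, and at 72 h the groups overlapped after TMM scaling. The log2 change was −0.13 (SE 0.05, adjusted p = 0.135) at 48 h, which passed in DESeq2 (adjusted p = 0.019) and with scaling by library totals (0.0396). It was −0.01 (SE 0.05, adjusted p = 0.935) at 72 h. Xbp1 fell with time by 0.27 in wild-type (SE 0.05, adjusted p = 9.53e-05) and 0.14 in ko cells (SE 0.05, adjusted p = 0.0183). With the exon length trend removed these became −0.11 (adjusted p = 0.0574) and 0.03 (adjusted p = 0.587), and the ko call was also lost without ko replicate 1 at 48 h (0.0503) or ko replicate 3 at 72 h (0.0578).

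In counts, at 48 h 1 of the 10 members passed the edgeR test as higher in ko cells and 0 as lower, against 4.41% and 2.66% of all 15197 genes tested. An unadjusted p below 0.05 gave 2 lower, Pdia4 and Xbp1, and DESeq2 gave 1, Xbp1. At 72 h 1 member was higher and 3 were lower, against 16.9% and 19.5% of all genes. The members' median log2 change was 0.01 at 48 h and −0.08 at 72 h, beside 0.01 and −0.02 over all genes. For the difference between the genotype effects, 0 members were higher and 2 lower, against 2.08% and 3.53%, with 0 higher also at an unadjusted p below 0.05 and in DESeq2. From 48 h to 72 h, 2 members rose and 8 fell in wild-type cells, against 33.6% and 29.9% of all genes, and 2 rose and 8 fell in ko cells, against 34.4% and 33.6%. The medians over time were −0.61 in wild-type and −0.84 in ko cells, beside 0.05 and 0.03 over all genes. With the exon length trend removed, 6 members fell in wild-type and 7 in ko cells, beside 4139 and 4632 of all 15197 genes. These comparisons share libraries, so they are not independent of each other.

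**Figure D2:**
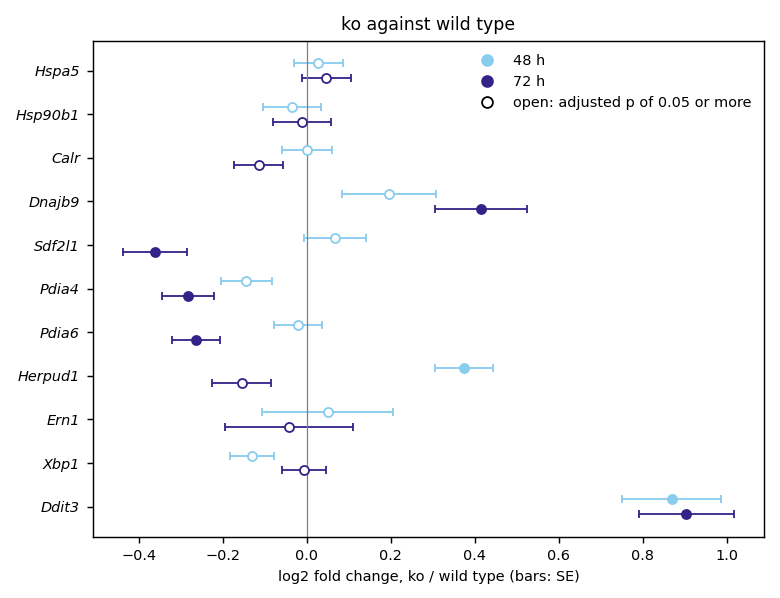
Log2 fold change of ko against wild type for each member and for Ddit3 at 48 h and 72 h. Points are edgeR estimates, bars are ± 1 SE and filled points passed an adjusted p of 0.05. Ddit3 lies at 0.87 and 0.90, while Hspa5 and Hsp90b1 lie within 0.05 of zero at both times.

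**Figure D3:**
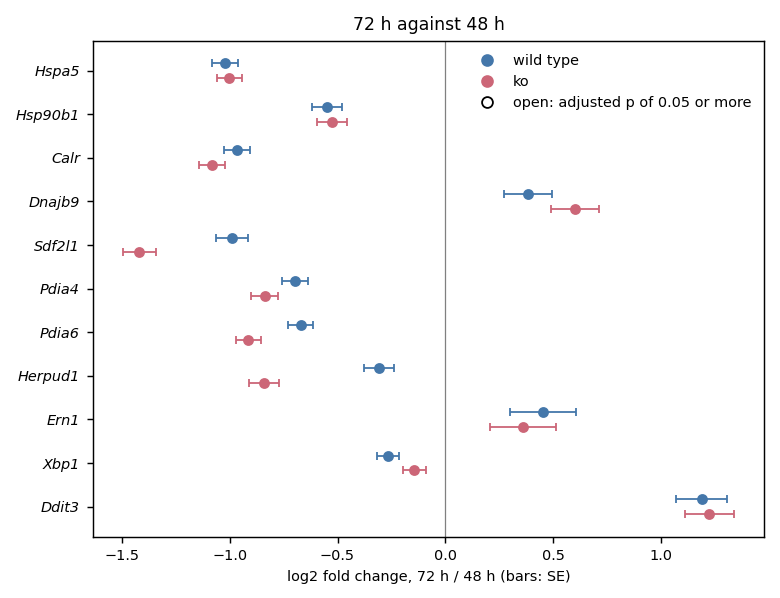
Log2 fold change from 48 h to 72 h in wild-type and ko cells for the same genes; points are edgeR estimates and bars are ± 1 SE. Hspa5, Sdf2l1 and Calr lie lowest, and Ddit3 (1.19 and 1.22) highest.

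Ddit3 was higher in ko cells at both times. It had 19.9, 19.9, 23.9 and 24.9 CPM in wild-type and 37.4, 39.9, 30.5 and 51.0 CPM in ko libraries at 48 h. At 72 h it had 58.4, 56.4, 48.3 and 43.1 CPM in wild-type and 90.6, 89.7, 91.5 and 81.5 CPM in ko libraries. The ko libraries were higher than all wild-type libraries at each time, and the highest at 48 h was the replicate 4 that stood apart. The log2 change was 0.87 (SE 0.12, adjusted p = 5.28e-05) at 48 h and 0.90 (SE 0.11, adjusted p = 3.48e-06) at 72 h, and 0.75 and 0.84 without both libraries. The 2 effects differed by 0.03 (SE 0.16, adjusted p = 0.936). Ddit3 also rose with time, by 1.19 in wild-type and 1.22 in ko cells, whereas Hspa5 and Atf4 fell. Ddit3 shares 68 exon bases with Mars on the opposite strand, which had 89692 counts over all libraries against 26987 for Ddit3. The strand setting of the counting is not given in the sources used here. A second identifier with the symbol Ddit3, on the same strand, shares 105 exon bases with it and had 0 counts.

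Atf4, the factor downstream of PERK, averaged 733 ± 20.8 and 807 ± 36.4 CPM (wild type and ko) at 48 h and 529 ± 15.2 and 557 ± 14.2 CPM at 72 h (SD, n = 4). Its log2 change was 0.18 (SE 0.06, adjusted p = 0.0574) at 48 h and 0.20 (SE 0.06, adjusted p = 0.00722) at 72 h, the latter lost with scaling by library totals (0.07, adjusted p = 0.253). The 48 h value passed without both libraries that stood apart (adjusted p = 0.00459). Eif2ak3, the gene for PERK, did not pass (0.09 at 48 h and 0.11 at 72 h, SE 0.07 each), nor did Atf6 (−0.09 and −0.01, SE 0.07 each). From 48 h to 72 h Atf4 fell, with log2 changes of −0.50 in wild-type and −0.47 in ko cells (SE 0.06 each). Over the same time Eif2ak3 rose by 0.65 and 0.67 and Atf6 by 0.27 and 0.35 (SE 0.07 each). All of these changes with time passed in edgeR. Activation of either sensor is a change of the protein, which mRNA counts do not measure. Among 4 eIF2α kinases 1 passed at 72 h, Eif2ak2, at −0.42 (SE 0.09, adjusted p = 0.000728), beside 19.5% of all genes lower. The number lower there was 3 at an unadjusted p below 0.05, with scaling by library totals, and without both libraries that stood apart. At 48 h 0 passed by edgeR, and 1, Eif2ak4, was lower at an unadjusted p below 0.05 (−0.20, SE 0.07), with 1 lower in DESeq2.

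At 48 h the list of 26 known ATF4 and CHOP targets, Ddit3 included, had 10 genes higher in ko cells and 0 lower by edgeR. Of all genes, 4.41% were higher and 2.66% lower, and the median was 0.27 for the list beside 0.01 over all genes. An unadjusted p below 0.05 gave 17 and 1, DESeq2 12 and 1, and the fit without both libraries 10 and 1. Chac1, which breaks down glutathione, averaged 17.02 ± 2.15 CPM in wild-type and 29.3 ± 4.13 CPM in ko cells (SD, n = 4), a log2 change of 0.81 (SE 0.10, adjusted p = 1.49e-05). Nupr1, a stress-induced chromatin protein, was higher by 0.58 (SE 0.10) and Trib3, a pseudokinase that binds CHOP and ATF4, by 0.57 (SE 0.08). At 72 h 8 were higher and 10 lower, against 16.9% and 19.5% of all genes, with a median of −0.10 beside −0.02. With scaling by library totals the list had 5 higher and 12 lower, and in a fit of only the groups compared 8 and 7. Nupr1 (1.17, SE 0.11), Ppp1r15a, which recruits the phosphatase of eIF2α (0.69, SE 0.14), and Bbc3, the death gene Puma (0.45, SE 0.07), were higher. Stc2 was lower by a log2 change of −0.87 (SE 0.12), and Asns, asparagine synthetase, by −0.40 (SE 0.06). Chac1 had −0.27 (SE 0.11, adjusted p = 0.0672) at 72 h, and its genotype effects differed by −1.08 (SE 0.15, adjusted p = 0.000294). Over the list, the genotype effect was more positive at 72 h in 1 gene and more negative in 10 (6 with the replicate block), against 2.08% and 3.53% of all genes.

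Among the other ER folding genes, more chaperones were lower than higher in ko cells at 72 h. Of 12 further chaperones and co-chaperones, 0 passed at 48 h by edgeR or DESeq2. Of all genes, 4.41% were higher and 2.66% lower there by edgeR. An unadjusted p below 0.05 gave 2 higher and 0 lower, and 1 was higher without both libraries that stood apart. At 72 h 1 was higher and 7 lower, with a median of −0.14 beside −0.02, against 16.9% and 19.5% of all genes. The 7 became 3 in a fit of only the groups compared and 5 with median-ratio scaling, the replicate block or the exon length trend removed. Hyou1, the large Hsp70 that exchanges nucleotide on BiP, averaged 90.5 ± 5.36 CPM in wild-type and 58.0 ± 6.54 CPM in ko cells at 72 h (SD, n = 4), a change of −0.51 (SE 0.07, adjusted p = 8.37e-06). At 48 h it had −0.11 (SE 0.07, adjusted p = 0.364), and the effects differed by −0.40 (SE 0.10, adjusted p = 0.0214). Cnpy3, a co-chaperone of GRP94 for Toll-like receptors, had −0.33 (SE 0.07) and Creld2 −0.28 (SE 0.08) at 72 h. Sdf2, the paralog of Sdf2l1, was the higher one, at 0.58 (SE 0.08, adjusted p = 8.97e-06), while Sdf2l1 was lower.

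Among 14 further genes of oxidative folding, 3 were higher and 3 lower at 72 h, near the 16.9% and 19.5% of all genes. These were 3 and 5 with scaling by library totals and 5 and 3 without both libraries that stood apart. P4hb, the founding disulfide isomerase, averaged 787 ± 51.8 CPM in wild-type and 996 ± 38.1 CPM in ko cells (SD, n = 4), a change of 0.47 (SE 0.06, adjusted p = 1.83e-06), opposite in sign to Pdia4 and Pdia6. Erp44, which retrieves unfinished proteins to the ER, was higher by 0.59 (SE 0.07) and the peroxiredoxin Prdx4 by 0.56 (SE 0.10). Txndc5 (−0.44, SE 0.06), Txndc11 (−0.23, SE 0.08) and Pdia5 (−0.83, SE 0.17) were lower; the latter 2 lie outside the naming rule. At 48 h 1 passed by edgeR, against 4.41% of all genes higher. It was the oxidase Ero1l (0.26, SE 0.07, adjusted p = 0.0362), which is also on the list of ATF4 and CHOP targets. Without both libraries 3 of the 14 were higher.

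Over all genes tested by edgeR, 4.41% were higher and 2.66% lower at 48 h, and 16.9% and 19.5% at 72 h. Of 19 ERAD genes other than Herpud1, 0 passed at 48 h by edgeR or DESeq2. An unadjusted p below 0.05 gave 4 higher and 1 lower there, and the fit without both libraries that stood apart 3 and 1. At 72 h 5 were higher and 1 lower, a balance that turned to 2 higher and 4 lower with scaling by library totals (4 and 2 without both libraries). Selenos, which anchors the ERAD ATPase at the membrane, was higher by 0.44 (SE 0.08), while Vcp, that ATPase itself, had −0.40 (SE 0.08). Ufd1 (0.28), Erlec1 (0.25), Derl1 (0.22) and Edem3 (0.23) were the others higher. Of 22 genes of translocation and transport, at 48 h 4 were higher by edgeR, namely Sec61g (0.49), Ssr4 (0.35), Sec61b (0.34) and Sec11c (0.28), all parts of the machinery that brings proteins into the ER. There 0 were lower (2 at an unadjusted p below 0.05, 1 in DESeq2). Without both libraries that stood apart 6 were higher and 2 lower. At 72 h 7 were higher and 3 lower, a balance that turned to 5 and 8 with scaling by library totals. Of 11 further sensors and transcription factors, 0 passed at 48 h by edgeR (Atf4 at an unadjusted p below 0.05, and 1 in DESeq2 and without both libraries), and 3 were higher and 2 lower at 72 h, a balance that turned to 2 and 3 with scaling by library totals. They were Atf4, Creb3 (0.45, SE 0.09), Atf6b (−0.22, SE 0.07), Nfya (−0.49, SE 0.06) and Nfyb (0.30, SE 0.07), subunits of the factor NF-Y that binds the CCAAT part of the ERSE, which moved in opposite directions. Of the 6 mRNAs listed as cut by IRE1, 3 were tested, with 0 called at 48 h by edgeR or DESeq2 (2 higher at an unadjusted p below 0.05) and 2 higher at 72 h (1 with scaling by library totals), Bloc1s1 (0.62, SE 0.17) and Hgsnat (0.22, SE 0.07).

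**Figure D4:**
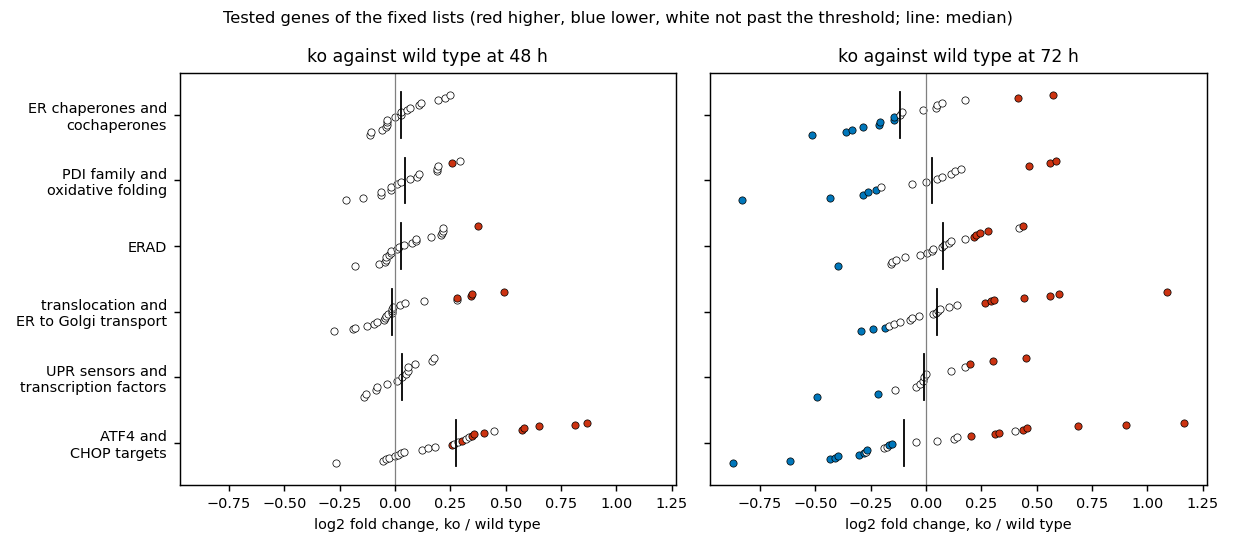
Log2 fold change of ko against wild type at 48 h and 72 h for every tested gene of the lists drawn. These are chaperones, oxidative folding, ERAD, translocation and transport, sensors and transcription factors, and ATF4 and CHOP targets. Each point is 1 gene and filled points passed an adjusted p of 0.05. ATF4 and CHOP targets have calls only above zero at 48 h (10 of 26) and on both sides at 72 h, and chaperones have no call at 48 h.

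Over time, of 12 further chaperones, 2 rose and 8 fell in wild-type cells, against 33.6% and 29.9% of all genes, and 2 rose and 10 fell in ko cells, against 34.4% and 33.6%. With the exon length trend removed, 3 rose and 7 fell in wild-type and 2 rose and 8 fell in ko cells. Hyou1 fell by 1.04, Manf, a secreted survival factor of the ER, by 1.01 and Creld2 by 0.93 in wild-type cells. Of 19 further ERAD genes, 3 rose and 8 fell in wild-type and 4 rose and 8 fell in ko cells, which became 5 and 6, and 8 and 8, with the exon length trend removed. The lectin Os9 rose by 0.79 and the ubiquitin ligase Syvn1 fell by 0.74 in wild-type cells. The 6 other genes whose log2 CPM over the 16 libraries was most like the mean of the members' standardized log2 CPM were Hdac1, Klhdc4, Senp3, Wdr74, Timm50 and Szrd1, with Pearson correlations of 0.988 to 0.990. The 16 points share the split between 48 h and 72 h, and no function is read from the likeness.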

How the data were processed

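RNA from CD8 T cells was sequenced as poly-A libraries made with a stranded kit, per the labels' protocols. bcl2fastq 2.2.0, STAR 2.7, featureCounts and build GRCm38 were used, per the submitters' processing notes. The deposited values are whole-number counts per gene, not normalized. The sources used here give neither the annotation nor the strand setting. Of the 55335 identifiers, 55154 were found in GENCODE M21, which gave symbols, exon lengths and positions. CPM divide counts by a library's total and RPKM also by exon length.

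All 16 libraries in 4 groups were fitted together (R 4.3.3, edgeR 4.0.16; normalization by TMM; filterByExpr, minimum count 10; two-sided quasi-likelihood F test with robust fitting), with Benjamini-Hochberg adjustment over 15197 genes and a threshold of 0.05. Each standard error is the log2 change over the square root of F. The median coefficient of variation between libraries of a group, which edgeR calls biological, was 9.68%. Replicate libraries all differed by more than sampling noise. The limit given for a gene with no count covers counting error only.

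Members and lists were chosen with earlier results of these data known. Named were all members, Ddit3, Atf4, Eif2ak3, Atf6 and Batf3, and the 6 genes most like the members. Per list and comparison, a rule gave up to 4 further genes with the largest called change (average log2 CPM 3 or more). Some genes given by it are not named, among them Cebpb at 48 h and genes of the time comparisons. Genes outside this rule were picked after their values were seen. These are the other chaperones, oxidative folding, ERAD and list genes given to complete a count, and Asns. Alternatives were median-ratio and library-total scaling, DESeq2 1.42.0, other filters, separate fits of the compared groups, a block for replicate number, exon length offsets, and leaving out each library or both that stood apart. The level of 1 marker gene is not reported here.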

Additional observations from a re-analysis of the deposited data

Results flagged for a closer look

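Herpud1 in wild-type cells at 72 h had 68.9, 68.1, 69.2 and 60.3 CPM. The lowest, replicate 4, lay apart from the nearest of the others by 0.874 of the group's range, above Dixon's critical value for 4 libraries. It was 1 of 44 groups checked, and chance flags about 1 in 20. The same library stood apart over all genes.

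For 2 members the effect of genotype differed between the times by the interaction test in edgeR. For Herpud1 the 72 h effect minus the 48 h effect was −0.53 on the log2 scale (SE 0.10, adjusted p = 0.00237), from 0.37 at 48 h to −0.15 at 72 h. For Sdf2l1 it was −0.43 (SE 0.11, adjusted p = 0.0175), from 0.07 to −0.36.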

How the results depend on the processing

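Over the alternatives, 1278 of the values for single genes kept their direction and side of the threshold, 12 newly passed it, 18 no longer passed and 56 changed sign. Every sign change but 1 was in a value that had not passed; the cause was not tested. The count of members lower in ko at 48 h was 1 (from 0) with library-total scaling and in DESeq2, that at 72 h 6 (from 3) with library-total scaling, and that of members rising with time in ko cells 1 (from 2) with library-total scaling, in DESeq2, with only the groups compared and with the replicate block. Leaving out 1 library gave 1 to 2 members rising in wild-type cells, 1 to 2 in ko cells and 1 to 3 with a more negative effect at 72 h.

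With library-total scaling the values that changed sign were Hspa5 −0.0081 at 48 h, −0.0788 at 72 h and −0.0707 for the difference of effects, Hsp90b1 −0.0651 and Ddit3 −0.0614 for that difference, and Calr −0.0346 at 48 h. Calr at 48 h was also −0.0137 with median-ratio scaling, −0.016 in DESeq2, −0.0047 with no filter and −0.0013 with the replicate block. With only the groups compared Xbp1 was 0.0119 and Hsp90b1 0.0071 at 72 h. With exon length offsets Xbp1 was 0.0002 at 72 h and 0.0318 over time in ko cells, Hsp90b1 0.0305 and Ern1 0.0821 at 72 h, Calr −0.0237 and Sdf2l1 −0.0374 at 48 h, and Ddit3 −0.0149 for the difference. Without both libraries that stood apart Xbp1 was 0.0216 and Hsp90b1 0.0363 at 72 h, Hsp90b1 0.0064, Pdia6 0.018 and Ern1 −0.1552 at 48 h, and Ern1 0.0123 for the difference. Leaving out 1 library, the ranges across zero were −0.0707 to 0.0062 (Hsp90b1), −0.0638 to 0.022 (Calr), −0.0553 to 0.0179 (Pdia6) and −0.1555 to 0.1318 (Ern1) at 48 h, −0.0414 to 0.0216 (Xbp1), −0.0416 to 0.0363 (Hsp90b1) and −0.1431 to 0.0609 (Ern1) at 72 h, and −0.0236 to 0.0775 (Hspa5), −0.0189 to 0.072 (Hsp90b1), −0.1921 to 0.1118 (Ern1) and −0.0724 to 0.1549 (Ddit3) for the difference.

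Over all genes, 670 were higher and 405 lower in ko at 48 h. These were 794 and 844 in DESeq2, 535 and 573 with library-total scaling, 1379 and 1171 without both libraries that stood apart, and 302 to 1059 and 171 to 896 leaving out 1 library. At 72 h 2565 and 2961 became 1463 and 4779 with library-total scaling. For the difference of effects 316 and 537 became 183 and 1230 with library-total scaling (37.0% and 13.0% of calls higher), 569 and 695 in DESeq2, and 158 to 407 and 233 to 649 leaving out 1 library. The replicate numbers did not pair libraries: correlations of same-numbered libraries' deviations ran from −0.599 to 0.294, and 5 of 16 libraries correlated best with their own number. With the number as a block, 572 were higher and 346 lower at 48 h, and the 1 member call that changed was Ern1 over time in ko cells (adjusted p = 0.0542). Depth limits Dnajb9 and Ern1 most, at 181 to 314 and 163 to 317 counts.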
